A study of Mus musculus with 6 samples.

Results

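Protein phosphatase 2A (PP2A) is a serine/threonine phosphatase that removes phosphate from many kinases and their targets, AKT and proteins of the MAP kinase cascade among them. Its core is a dimer of a catalytic C subunit and a scaffold A subunit, and a regulatory B subunit joins that core and decides which substrates it reaches. The B subunits form families that are unrelated in sequence, called B (B55), B′ (B56), B″ and the striatins. The members described here are 10 genes matched by symbol in a table of 24469 loci. They comprised both catalytic genes (*Ppp2ca* and *Ppp2cb*), both scaffold genes (*Ppp2r1a* and *Ppp2r1b*), the B55 gene *Ppp2r2a* and all 5 B56 genes (*Ppp2r5a* to *Ppp2r5e*). The family was selected on FPKM already compared between these libraries, so the tests below are read against all loci and not as independent evidence. Within it the rule used the mean FPKM to choose between loci of a single symbol, and each of the 10 symbols had 1 locus, so that choice was not needed.

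RNA-Seq was performed on MPCs, a single conditionally immortalized podocyte line. Podocytes are epithelial cells whose processes cover the filtering capillaries of the glomerulus. The line grows with interferon gamma and had been differentiated without it, and all 6 libraries came from cells starved for 12 h in serum-free medium and then kept in high glucose (HG, 25 mM) for 12 h. The HG group had no pretreatment, the HG + rFGF1WT group received wild-type recombinant FGF1 at 100 ng/mL for 1 h before HG, and the HG + rFGF1ΔHBS group received at the same dose and time a mutant of FGF1 with weakened binding to heparan sulfate. Each group had 2 libraries. Cells at normal glucose are not part of the data analysed here, and no value below measures a response to HG. The sources do not say whether libraries of a group came from separate cultures, so p-values measure only the spread between these libraries, which may be technical.

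The deposited values were FPKM, fragments scaled to the length of the transcript and to the mapped fragments of the library, which allow levels of different genes to be compared per length. All 10 members had a mean FPKM of at least 1, the limit for testing, as did 10562 of the 24469 loci, and no member was listed at 0 in any library. Pearson's r of log2(FPKM + 1) across the tested loci ranged from 0.916 to 0.923 within groups and from 0.895 to 0.924 across groups, and genes are not independent replicates. The labelled cell type was checked against podocyte markers, of which 4 of 8 had a mean FPKM of at least 1. *Actn4*, *Cd2ap*, *Podxl* and *Synpo* were expressed in every library, whereas the slit diaphragm gene *Nphs1* reached at most 0.942 FPKM and *Wt1* at most 0.0731. *Magi2* reached at most 0.35 FPKM and *Ptpro* at most 0.048, with 2 libraries of *Ptpro* at 0. The markers did not settle the cell type, which is taken from the label. Summed FPKM of the podocyte markers was 163 to 170 under HG, 185 to 197 with rFGF1WT and 184 to 188 with rFGF1ΔHBS, with *Actn4* and *Cd2ap* as most of the signal. Of the smaller terms, *Synpo* had 0.477 and 0.589 times and *Podxl* 0.912 and 0.894 times the HG mean with rFGF1WT and rFGF1ΔHBS, and 0 of the 4 markers tested passed the test, where 6.19% and 6.26% of all loci did. Below the limit for testing, *Wt1* had 0.526 and 0.283 times its HG mean and *Nphs1* 1 and 0.734 times. *Magi2* had 3.99 and 2.07 times and *Ptpro* 0.493 and 6.08 times. These ratios are of levels under 1 FPKM and were not tested. The 3 mesangial markers, with *Pdgfrb* as nearly all of the signal, summed to 31.9 to 32.9, 26.5 to 27.6 and 26.2 to 27.6 in the same order. The proximal tubule markers *Lrp2* and *Cubn* summed to 27.3 to 28.9, 22.5 to 23.1 and 23.0 to 24.3, the endothelial markers to at most 0.0848, and the macrophage markers *Adgre1* and *Ptprc* to at most 0.0684. The third macrophage marker, *Cd68*, was left out of that sum because its locus is merged with *Eif4a1*, a translation initiation factor gene. That merged locus had 53.2 and 50.1 FPKM under HG, 66.3 and 63.1 with rFGF1WT, and 67.1 and 67.3 with rFGF1ΔHBS, and rose by log2 fold changes of 0.32 (adjusted p = 0.0496, limma) and 0.37 (adjusted p = 0.0363). Without the replicate block, it was called in 5 and 6 of 14 alternatives (adjusted p 0.0392 to 0.162 and 0.0302 to 0.126). The podocyte, mesangial and proximal tubule sums with either FGF1 lay outside the HG ranges. Libraries did not overlap HG for 58.2% of all loci with rFGF1WT and for 57.3% with rFGF1ΔHBS. *Pdgfrb* (adjusted p = 0.079 and 0.076, limma) and *Lrp2* (adjusted p = 0.077 and 0.10, limma) did not pass the test. The part of these levels in the results was not tested. All libraries came from a single line, and in bulk RNA fewer cells with a transcript and less of it per cell cannot be told apart.

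Of the members, *Ppp2r5a* and *Ppp2r5b* passed the test against HG, in opposite directions, and their promoters are shown to place both genes. Locus coordinates are those of GRCm38, through the Ensembl transcripts in the table and GENCODE M21, and promoter sequences and their coordinates are from RefSeq on GRCm38.p6. *Ppp2r5a* encodes the B56 alpha subunit and spans chr1:191351975-191403272 on the minus strand, with up to 13 exons in its 7 transcripts. *Ppp2r5b* encodes the B56 beta subunit and spans chr19:6227765-6235872 on the minus strand, with up to 14 exons in its 3 transcripts. Each promoter is a window of 300 bases around a RefSeq start and is printed 5′ to 3′ on the gene's strand. The windows are chr1:191396992-191397291 for *Ppp2r5a* and chr19:6235791-6236090 for *Ppp2r5b*. The *Ppp2r5b* window includes the 5′ end of its span. That of *Ppp2r5a* lies inside its span, downstream of the 5′ end, and describes only that RefSeq start. Capitals mark the matches found, on either strand, to a GC box (GGGCGG, or CCGCCC on the other strand) and a CCAAT box (CCAAT, or ATTGG).
Ppp2r5a: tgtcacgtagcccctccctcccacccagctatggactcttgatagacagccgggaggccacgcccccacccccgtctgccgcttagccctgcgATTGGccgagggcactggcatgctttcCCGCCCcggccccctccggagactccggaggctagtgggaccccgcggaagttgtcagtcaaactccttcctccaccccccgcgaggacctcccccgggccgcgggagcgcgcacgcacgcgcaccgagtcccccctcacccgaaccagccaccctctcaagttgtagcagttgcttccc
Ppp2r5b: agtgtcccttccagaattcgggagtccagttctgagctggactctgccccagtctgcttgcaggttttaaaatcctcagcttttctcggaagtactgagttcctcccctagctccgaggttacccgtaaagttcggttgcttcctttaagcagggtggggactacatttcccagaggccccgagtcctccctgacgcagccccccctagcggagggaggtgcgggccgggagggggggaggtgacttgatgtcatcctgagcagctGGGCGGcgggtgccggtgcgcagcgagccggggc

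The *Ppp2r5a* window held 1 GC box and 1 CCAAT box, and the *Ppp2r5b* window held 1 GC box. Among 32851 RefSeq promoters of this length, 35.7% held a GC box and 37.4% a CCAAT box on either strand. Neither window matched the FOXO motif GTAAACA, the ETS motif CCGGAAG, the CRE TGACGTCA, the AP-1 motif TGANTCA, the E-box CACGTG or the TATA box TATAAA, which were present in 3.65%, 8.86%, 1.79%, 7.81%, 7.15% and 13.6% of all promoters. No searched motif contains another as written. GC content was 69.0% for *Ppp2r5a* and 61.7% for *Ppp2r5b*, against a median of 52.7% over all promoters. RefSeq promoters were matched for 7 of the 10 members. A match is a description of these letters and was not tied to binding of any factor.

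Levels of the members, per length, ranged about an order of magnitude, from the scaffold gene *Ppp2r1a* with a mean of 72.1 FPKM over the 6 libraries to the B56 gene *Ppp2r5e* with 7.72 FPKM. Between them, in falling order, stood *Ppp2r5b* (50.6), *Ppp2cb* (41.5), *Ppp2r5d* (36.2), *Ppp2ca* (28.5), *Ppp2r2a* (15.0), *Ppp2r5c* (11.3), *Ppp2r1b* (10.4) and *Ppp2r5a* (8.98). Neighbours in this order had separate ranges over the libraries in 3 cases, namely *Ppp2r1a* and *Ppp2r5b*, *Ppp2r5d* and *Ppp2ca*, and *Ppp2ca* and *Ppp2r2a*. All other neighbours overlapped. This order pools the groups, and *Ppp2r5a* held ninth place in none of them. Under HG its mean of 12.6 FPKM stood above those of *Ppp2r5c* (12.2) and *Ppp2r1b* (11), and with rFGF1WT (7.27) and rFGF1ΔHBS (7.05) it was the lowest member, below *Ppp2r5e* (8.09 and 8.37). The level of *Ppp2r1a* exceeded 96.7% of tested loci, that of *Ppp2r5b* 94.5%, that of *Ppp2r5a* 54.3% and that of *Ppp2r5e* 49.1%.

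**Figure D1:**
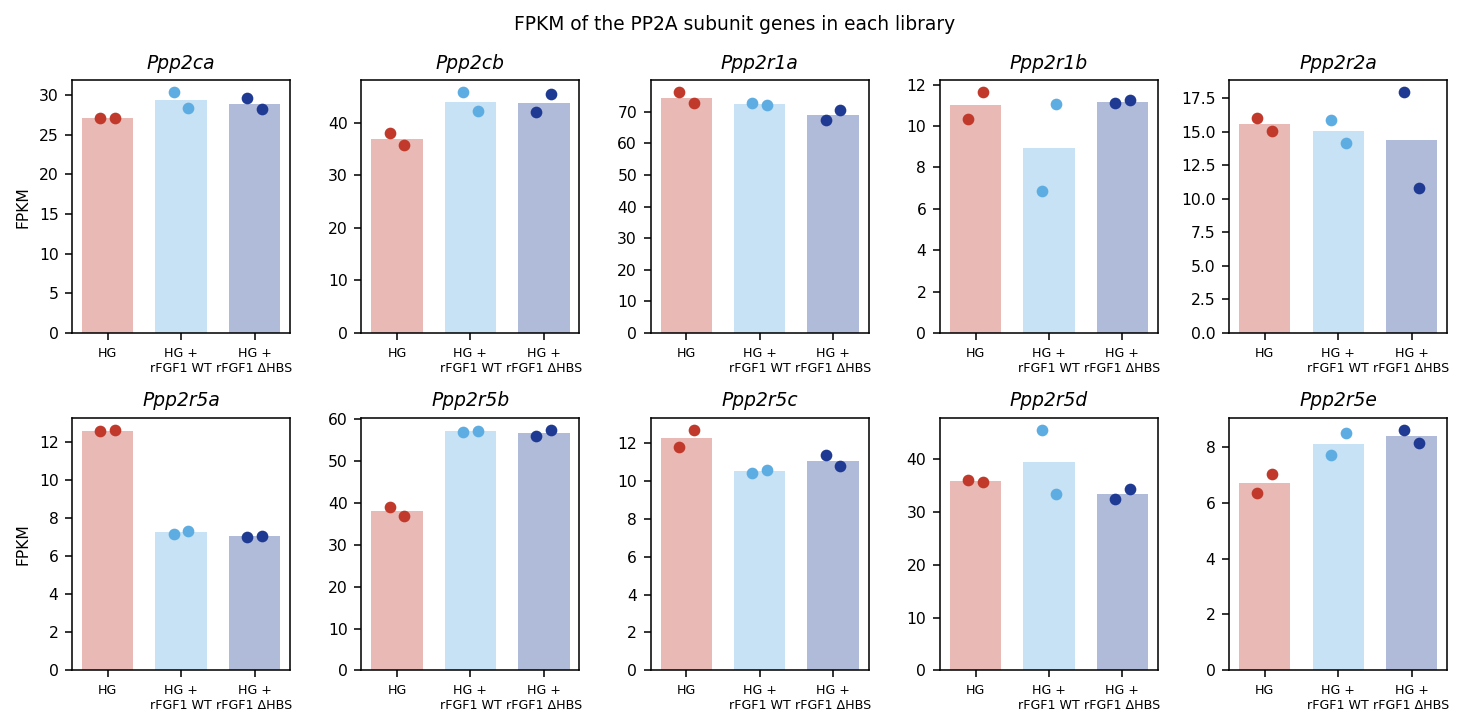
FPKM of the 10 PP2A subunit genes (vertical axes, linear, each starting at 0 with its own scale) in the 3 groups. Points are single libraries and bars are means of 2 libraries. *Ppp2r5a* stood at 12.6 and 12.7 under HG and between 7.04 and 7.36 with either FGF1, and *Ppp2r5b* at 36.8 and 39.2 under HG and between 56 and 57.5 with either FGF1.

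Log2(FPKM + 1) was tested with limma in 1 fit of all 6 libraries and all tested loci, with Benjamini-Hochberg adjustment over the 10562 loci, and a gene was called at an adjusted p under 0.05. Fold changes on this scale understate those of genes with low FPKM. Against HG, rFGF1WT called 2 of 10 members, 1 higher and 1 lower, where 6.19% of all tested loci were called, and rFGF1ΔHBS called 2 of 10, 1 higher and 1 lower, where 6.26% of all loci were called. The same 2 genes were called with both proteins, whose comparisons share the HG libraries. With the study's limit of at least 2-fold in addition, 0 of 10 members were called with either protein, where 1.01% of loci were called with rFGF1WT and 0.899% with rFGF1ΔHBS. An unadjusted p under 0.05 in limma was found for 5 of 10 members with rFGF1WT, against 24.8% of all loci. With rFGF1ΔHBS it was found for 4 of 10 members, against 24.9% of all loci. The median log2 fold change of the members was 0.04 with rFGF1WT and -0.04 with rFGF1ΔHBS. That of all tested loci was -0.04 with each protein. Libraries of the 2 groups did not overlap for 6 of 10 members with rFGF1WT, where 58.2% of all loci did not overlap, and for 8 of 10 members with rFGF1ΔHBS, where 57.3% did not.

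Among the B56 genes, *Ppp2r5a* fell with both proteins. B56 alpha is one of the regulatory subunits known to direct PP2A to MYC and to other phosphoproteins. Its FPKM was 12.6 and 12.7 in the HG libraries, 7.18 and 7.36 with rFGF1WT, and 7.04 and 7.06 with rFGF1ΔHBS. The 4 FGF1 libraries all lay below both HG libraries, and replicates differed far less than the groups did. Under HG the mean was 12.6 ± 0.0613 (SD, n = 2), against 7.27 ± 0.127 (SD, n = 2) with rFGF1WT and 7.05 ± 0.0109 (SD, n = 2) with rFGF1ΔHBS, which are 0.576 and 0.559 times the HG mean. The fitted log2 fold change was -0.72 with rFGF1WT (95% interval -0.86 to -0.58, adjusted p = 0.0117, limma) and -0.76 with rFGF1ΔHBS (-0.90 to -0.62, adjusted p = 0.0121). A plot in the study shows this gene from these same libraries among genes of the PI3K-AKT pathway, so its call is a description and not independent evidence. The call was lost when either HG library or either library of the FGF1 group compared was left out, with adjusted p up to 0.0617 with rFGF1WT and 0.0631 with rFGF1ΔHBS, while the log2 fold change stayed between -0.83 and -0.67 over all alternatives.

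*Ppp2r5b* rose with both proteins. B56 beta belongs to the same family and can take the same place on the core dimer. Its FPKM was 39.2 and 36.8 in the HG libraries, 57.0 and 57.2 with rFGF1WT, and 56 and 57.5 with rFGF1ΔHBS. The FGF1 libraries all lay above both HG libraries and close to each other. Under HG the mean was 38.0 ± 1.66 (SD, n = 2), against 57.1 ± 0.141 (SD, n = 2) with rFGF1WT and 56.7 ± 1.09 (SD, n = 2) with rFGF1ΔHBS, or 1.50 and 1.49 times the HG mean. The fitted log2 fold change was 0.58 with rFGF1WT (95% interval 0.44 to 0.71, adjusted p = 0.0164, limma) and 0.57 with rFGF1ΔHBS (0.43 to 0.71, adjusted p = 0.0175). The call was lost in the fit restricted to the 4 libraries compared and whenever any 1 of the 6 libraries was left out, with adjusted p up to 0.0751 and 0.0764, and the log2 fold change stayed between 0.52 and 0.62 over all alternatives.

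The other B56 genes did not pass the test. *Ppp2r5c*, which encodes B56 gamma, had 11.8 and 12.7 FPKM under HG, 10.4 and 10.6 with rFGF1WT, and 11.3 and 10.8 with rFGF1ΔHBS. All FGF1 libraries lay below both HG libraries, with log2 fold changes of -0.20 (adjusted p = 0.151, limma) and -0.14 (adjusted p = 0.285). *Ppp2r5e*, which encodes B56 epsilon, had 6.36 and 7.03 FPKM under HG, 7.69 and 8.49 with rFGF1WT, and 8.60 and 8.13 with rFGF1ΔHBS. Here the FGF1 libraries all lay above HG, with log2 fold changes of 0.24 (adjusted p = 0.180, limma) and 0.28 (adjusted p = 0.134). *Ppp2r5d*, which encodes B56 delta, had 36.1 and 35.7 FPKM under HG, 45.5 and 33.4 with rFGF1WT, and 32.5 and 34.3 with rFGF1ΔHBS. The rFGF1WT libraries of *Ppp2r5d* lay on either side of HG, and its log2 fold changes were 0.12 (adjusted p = 0.680, limma) and -0.10 (adjusted p = 0.729). Without the first rFGF1WT library the former was -0.10.

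**Figure D2:**
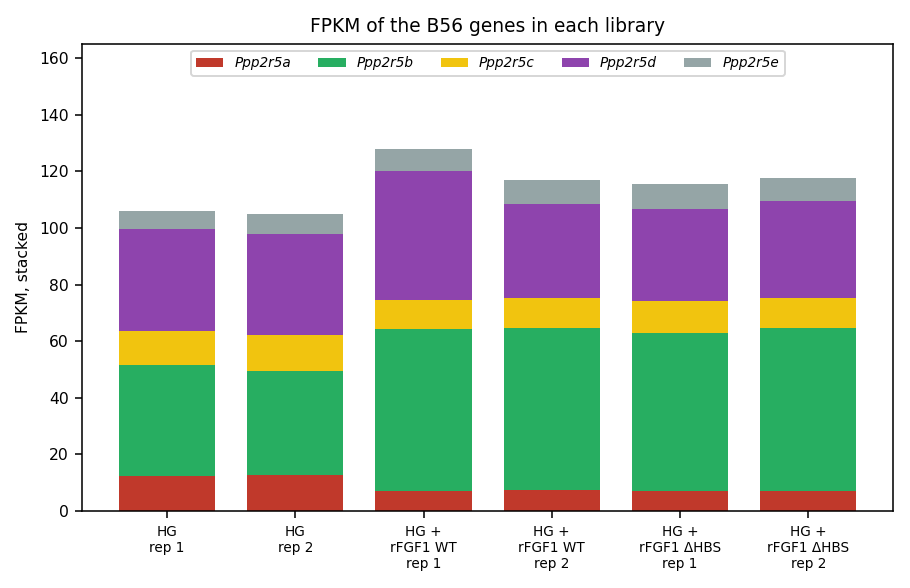
FPKM of the B56 genes stacked for each library (vertical axis, linear, from 0). The band of *Ppp2r5a* took 11.9% and 12.1% of the stack under HG and 5.62% to 6.28% with either FGF1, and the band of *Ppp2r5b* took 35.1% and 37.0% under HG and 44.6% to 48.9% with either FGF1.

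The makeup of the B56 transcripts therefore differed between groups, and it is given as a description, since it is computed from the same values. *Ppp2r5a* made up 12.0 ± 0.148% (SD, n = 2) of the summed B56 FPKM under HG, 5.95 ± 0.473% with rFGF1WT and 6.05 ± 0.0741% with rFGF1ΔHBS. *Ppp2r5b* made up 36.0 ± 1.31% (SD, n = 2), 46.7 ± 3.02% and 48.7 ± 0.267% in the same order. The ratio of *Ppp2r5b* to *Ppp2r5a* FPKM was 3.12 and 2.91 in the HG libraries, 7.94 and 7.78 with rFGF1WT, and 7.95 and 8.15 with rFGF1ΔHBS. No FGF1 library came near the HG ratios. The summed B56 FPKM was 106 and 105 under HG, 128 and 117 with rFGF1WT, and 115 and 118 with rFGF1ΔHBS.

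Of the catalytic genes, *Ppp2cb* had 1.32 to 1.61 times the FPKM of *Ppp2ca* in each library, and neither passed the test. *Ppp2ca* had 27.1 FPKM in both HG libraries, 30.3 and 28.3 with rFGF1WT, and 29.6 and 28.2 with rFGF1ΔHBS. The FGF1 libraries lay above HG by at most 1.12-fold, with log2 fold changes of 0.11 (adjusted p = 0.347, limma) and 0.09 (adjusted p = 0.430). *Ppp2cb* had 38.0 and 35.8 FPKM under HG, 45.8 and 42.2 with rFGF1WT, and 42.1 and 45.4 with rFGF1ΔHBS. Neither FGF1 group overlapped HG. Log2 fold changes were 0.25 (95% interval 0.05 to 0.44, adjusted p = 0.138, limma) and 0.24 (0.04 to 0.43, adjusted p = 0.143). Summed over both genes, catalytic FPKM under HG was 64.0 ± 1.55 (SD, n = 2), against 73.3 ± 3.94 with rFGF1WT and 72.6 ± 1.35 with rFGF1ΔHBS. *Ppp2cb* made up 57.6 ± 1.04% (SD, n = 2), 60.0 ± 0.190% and 60.2 ± 2.08% of that sum.

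The scaffold genes did not pass the test either. *Ppp2r1a*, the main scaffold gene, had 76.2 and 72.8 FPKM under HG, 72.9 and 72.3 with rFGF1WT, and 67.5 and 70.7 with rFGF1ΔHBS. The rFGF1WT libraries overlapped HG and the rFGF1ΔHBS libraries lay below it. The log2 fold changes were -0.04 with rFGF1WT (adjusted p = 0.696, limma, and 0.0048 after median-ratio scaling) and -0.11 with rFGF1ΔHBS (adjusted p = 0.285). *Ppp2r1b* had 10.4 and 11.6 FPKM under HG, 6.85 and 11.1 with rFGF1WT, and 11.1 and 11.3 with rFGF1ΔHBS. The first rFGF1WT library stood below the other 5, and the log2 fold change with rFGF1WT was -0.30 (adjusted p = 0.464, limma), or 0.01 without that library. With rFGF1ΔHBS it was 0.02 (adjusted p = 0.968, limma). *Ppp2r1a* made up 85.9% to 91.4% of scaffold FPKM in each library. The ratio of scaffold to catalytic FPKM was 1.33 and 1.34 under HG, 1.05 and 1.18 with rFGF1WT, and 1.10 and 1.11 with rFGF1ΔHBS.

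*Ppp2r2a*, which encodes the B55 alpha subunit, a regulator of mitotic exit and of AKT dephosphorylation, was the member with the widest error. It had 16.1 and 15.1 FPKM under HG, 15.8 and 14.2 with rFGF1WT, and 17.9 and 10.8 with rFGF1ΔHBS. The rFGF1ΔHBS libraries lay on either side of all others. The log2 fold changes were -0.05 (95% interval -0.70 to 0.61, adjusted p = 0.924, limma) and -0.15 (-0.80 to 0.51, adjusted p = 0.751), and the latter became 0.19 without the second rFGF1ΔHBS library.

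**Figure D3:**
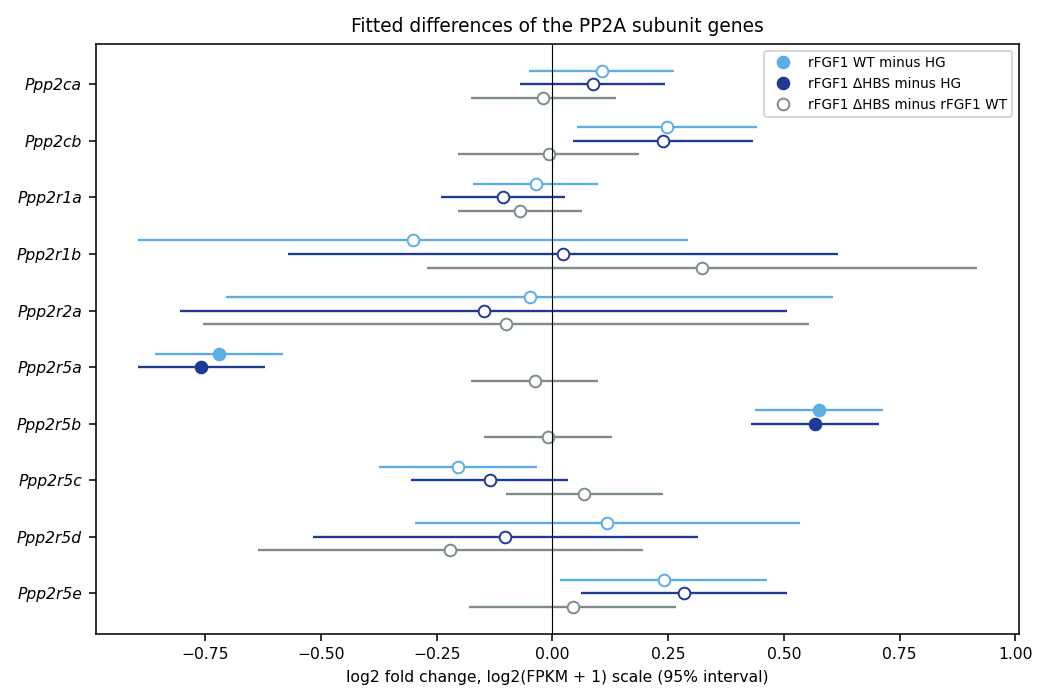
Fitted log2 fold change of each member on the log2(FPKM + 1) scale (horizontal axis) in the 3 comparisons, with 95% intervals from limma as lines. Filled points had an adjusted p under 0.05. These are *Ppp2r5a* at -0.72 and -0.76 and *Ppp2r5b* at 0.58 and 0.57 against HG, and no gray point, for rFGF1ΔHBS minus rFGF1WT, is filled.

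Between rFGF1ΔHBS and rFGF1WT, 2 proteins at a matched dose and time that differ in heparan sulfate binding, 0 of 10 members were called with limma, where 0.549% of all tested loci were called. Also 0 of 10 had an unadjusted p under 0.05, which 4.87% of all loci had. With the 2-fold limit 0.35% of loci were called, and 0 of 10 members. For *Ppp2r5a* the log2 difference, rFGF1ΔHBS minus rFGF1WT, was -0.04 (95% interval -0.18 to 0.10, adjusted p = 0.939, limma). For *Ppp2r5b* it was -0.01 (-0.15 to 0.13, adjusted p = 1, limma). The widest intervals were those of *Ppp2r2a* (-0.75 to 0.56), *Ppp2r1b* (-0.27 to 0.92) and *Ppp2r5d* (-0.64 to 0.20). With 2 libraries per group, these data do not tell apart the values within each interval. Libraries of the 2 FGF1 groups did not overlap for 4 of 10 members, where 34.5% of all loci did not overlap. *Ppp2r1b* and *Ppp2r5c* were higher and *Ppp2r1a* and *Ppp2r5a* lower with rFGF1ΔHBS in this sense, with log2 differences of 0.32, 0.07, -0.07 and -0.04, none of them called.

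The genes whose pattern over the 6 libraries was closest to that of *Ppp2r5a*, by Pearson's r of log2(FPKM + 1) among 10271 candidate loci above 0 in every library, were *Cdk19* (r = 0.9994), *Rhou* (r = 0.9985) and *Fzd4* (r = 0.9983). *Cdk19*, a Mediator kinase gene, had 23.5 and 23.8 FPKM under HG, 16.6 and 17.0 with rFGF1WT, and 16.3 and 16.5 with rFGF1ΔHBS. *Fzd4* encodes a Frizzled receptor. With 6 libraries in 3 groups these coefficients reflect the distance between HG and the FGF1 groups, and they are given as a description.

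Other genes of the PP2A system were drawn from lists of its known parts, each with its count beside that of all loci. Of 9 other B, B″ and striatin genes, 8 were tested and 0 were called with rFGF1WT, where 6.19% of loci were, with 1 at an unadjusted p under 0.05 in limma against 24.8% of all loci, while 1 was called with rFGF1ΔHBS, where 6.26% were. That gene was *Ppp2r2b*, a B55 gene, with 3.48 and 3.62 FPKM under HG, 2.50 and 2.53 with rFGF1WT, and 2.21 and 2.44 with rFGF1ΔHBS. All 4 FGF1 libraries lay below HG. Its log2 fold change with rFGF1ΔHBS was -0.45 (adjusted p = 0.0483, limma), and it was called in 3 of 13 alternatives without the replicate block (adjusted p 0.0429 to 0.156) and lost with it (adjusted p = 0.114), and with rFGF1WT it was -0.37 (adjusted p = 0.0722). The list's 2 most abundant genes were *Strn4*, with 11.8 to 13.6 FPKM over the libraries, and *Strn3*, with 6.83 to 9.19. Both encode striatins, the scaffolds of the STRIPAK complex, and their log2 fold changes were 0.03 and -0.05 (*Strn4*) and 0.24 and 0.21 (*Strn3*). The median log2 fold change of the list was 0.01 with rFGF1WT and -0.08 with rFGF1ΔHBS.

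Of 13 assembly, methylation and inhibitor genes, 12 were matched and tested, with 1 called lower with rFGF1WT, where 6.19% of loci were called, and 0 with rFGF1ΔHBS, where 6.26% were. With rFGF1ΔHBS 3 of the 12 had an unadjusted p under 0.05 in limma, against 24.9% of all loci. The gene called was *Mastl*, the Greatwall kinase that acts through *Ensa* and *Arpp19* to inhibit PP2A with B55. It had 8.11 and 7.84 FPKM under HG, 6.20 and 6.08 with rFGF1WT, and 6.31 and 6.21 with rFGF1ΔHBS. All FGF1 libraries lay below HG, with log2 fold changes of -0.33 (adjusted p = 0.0492, limma) and -0.31 (adjusted p = 0.0559). The former was called in 1 of 14 alternatives without the replicate block, with adjusted p of 0.0465 to 0.172, and was lost with it (adjusted p = 0.122). *Set*, an inhibitor of PP2A and the most abundant gene of the list, had 35.7 and 24.1 FPKM under HG, 47.8 and 41.3 with rFGF1WT, and 31.6 and 44.3 with rFGF1ΔHBS. Its replicates differed widely, and its log2 fold changes were 0.58 (adjusted p = 0.265, limma) and 0.34 (adjusted p = 0.480). *Anp32a*, another inhibitor, had log2 fold changes of -0.20 (adjusted p = 0.12, limma) and -0.24 (adjusted p = 0.0837). The median log2 fold change of the list was -0.16 and -0.13.

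**Figure D4:**
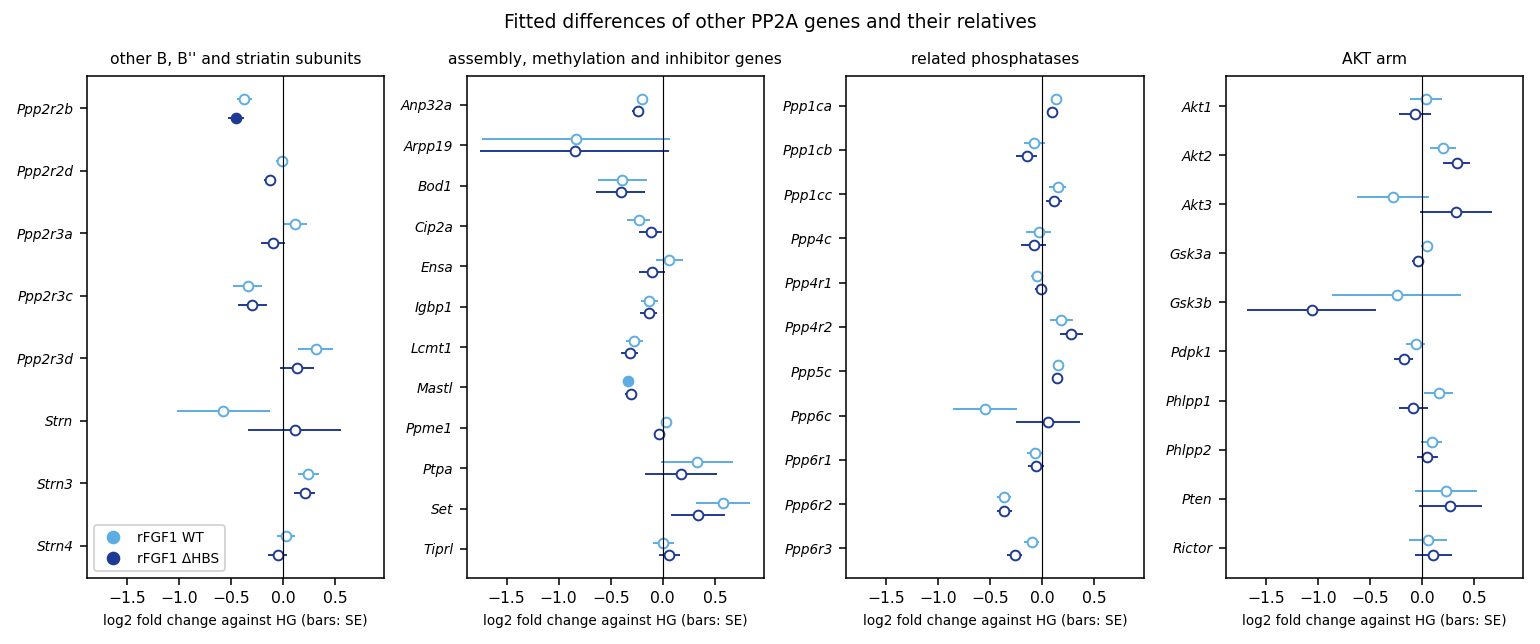
Log2 fold change against HG on the log2(FPKM + 1) scale (horizontal axes, bars are standard errors from limma) of the other PP2A genes and relatives, with rFGF1WT in light blue and rFGF1ΔHBS in dark blue. The filled points, at an adjusted p under 0.05, are *Ppp2r2b* with rFGF1ΔHBS (-0.45) and *Mastl* with rFGF1WT (-0.33).

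Of 11 related phosphatase genes, namely those of PP4, PP5, PP6 and the PP1 catalytic subunits, 0 were called with either protein, against 6.19% and 6.26% of all loci. An unadjusted p under 0.05 in limma was found for 3 of them with each protein, against 24.8% and 24.9% of all loci. *Ppp1ca*, a PP1 catalytic gene, was the most abundant at 459 to 520 FPKM over the libraries, with log2 fold changes of 0.13 and 0.09 (adjusted p = 0.182 and 0.299, limma), followed by *Ppp1cc* with 30.5 to 37.1 FPKM and log2 fold changes of 0.15 and 0.11. Of 10 genes of the AKT arm, the kinase whose active form PP2A dephosphorylates, 0 were called with either protein and 0 had an unadjusted p under 0.05 in limma, against the same shares of all loci. *Akt1* had 47.1 to 63.1 FPKM over the libraries, with log2 fold changes of 0.04 and -0.07, and *Gsk3a* had 27.5 to 30.5 FPKM, with 0.05 and -0.04. None of the genes in these 4 lists was called between rFGF1ΔHBS and rFGF1WT, where 0.549% of all loci were, and 0 had an unadjusted p under 0.05 there, which 4.87% of all loci had.

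In the deposited table's pathway annotation, 9 of the 10 members carried the KEGG PI3K-Akt signaling pathway, which held 296 loci in all, 193 of them tested. *Ppp2r5b* was the exception and carried 0 KEGG pathways, so a count over that pathway includes the fall of *Ppp2r5a* and leaves out the rise of *Ppp2r5b*. For each member the transcript with the longest coding sequence was compared. The coding sequences of *Ppp2ca* and *Ppp2cb*, each 927 bases, were identical at 81.7% of aligned positions, and those of *Ppp2r5a* and *Ppp2r5b* at 69.1%. Over the whole transcripts, untranslated ends included, the longest identical stretch was 25 bases for the former pair and 21 bases for the latter. The longest for any pair of these transcripts was 29 bases, between *Ppp2r5b* and *Ppp2r5d*. Of protein-coding genes, *Ppp2r5b* overlaps *Gpha2* on the opposite strand, *Ppp2r1b* overlaps *Sik2* and *Ppp2r5d* overlaps *Mea1*, also on the opposite strand. The sources do not say whether counting used strand, and without it fragments of such a pair cannot be told apart. Genes of other annotated types overlap *Ppp2ca*, *Ppp2r1b*, *Ppp2r5c*, *Ppp2r5d* and *Ppp2r5e*, in part on the same strand for *Ppp2ca*, *Ppp2r1b* and *Ppp2r5e*. *Ppp2r5a*, *Ppp2cb*, *Ppp2r1a* and *Ppp2r2a* overlap no annotated gene.

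**Figure D5:**
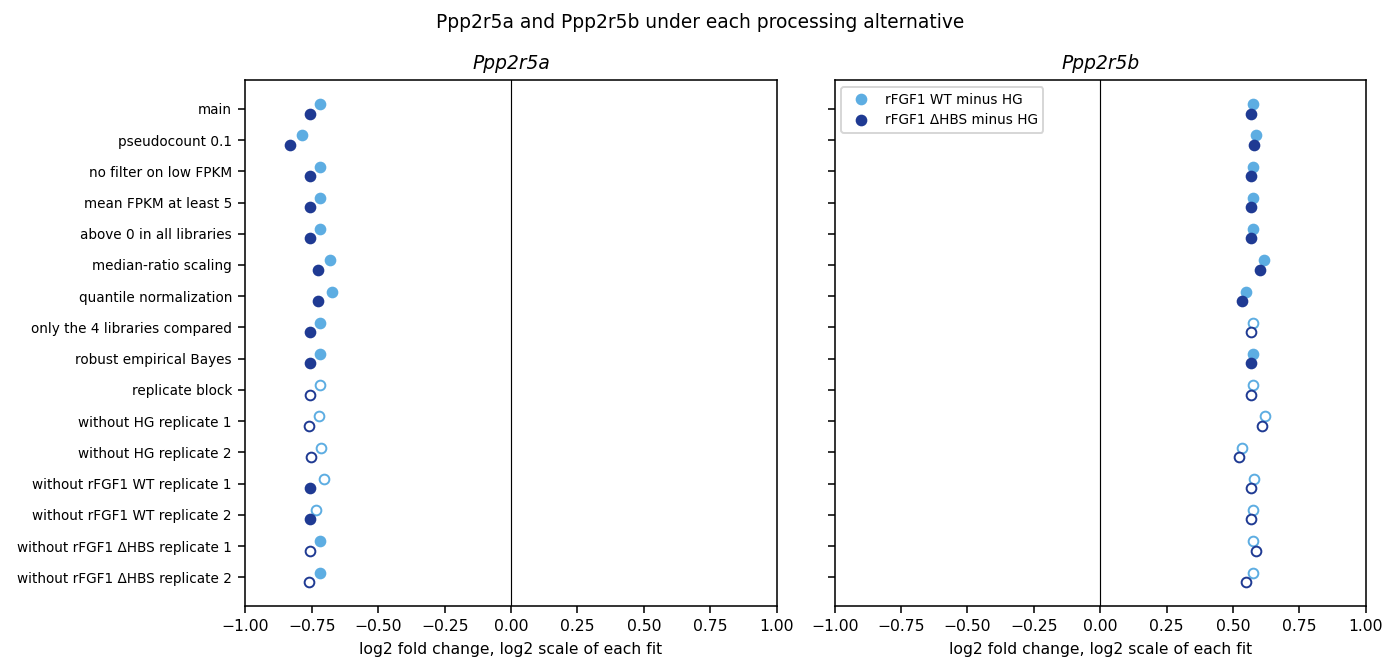
Log2 fold change of *Ppp2r5a* (left) and *Ppp2r5b* (right) against HG (horizontal axes) under each processing alternative (rows). Filled points had an adjusted p under 0.05. The values stayed between -0.83 and -0.67 for *Ppp2r5a* and between 0.52 and 0.62 for *Ppp2r5b*, while open points show the fits in which the call was lost.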

How the data were processed

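The authors sequenced poly(A) RNA with paired ends and deposited FPKM per locus, which their methods summarized with edgeR at limits of q under 0.05 and 2-fold. The submitters' notes name Bowtie 0.12.2, HISAT2 2.0, StringTie 1.3.0 and the build mm8, without roles. The Ensembl transcripts of the members were placed with GENCODE M21 (GRCm38). FPKM do not allow a count model, and log2(FPKM + 1) was fitted here with limma 3.58.1 (R 4.3.3; lmFit, contrasts and eBayes with a trend) over loci whose FPKM averaged 1 or more, with 3 residual degrees of freedom. The smallest p of an exact permutation test of 2 against 2 is 0.333, and this test was left out. Absolute depth is unknown from FPKM, and low values gave depths of 0.970 to 1.01 relative to the first HG library. Of the tested loci, 2.75% had a library at 0.

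The members and gene lists were chosen with earlier results of these data known. All members were named, together with listed genes with an adjusted p under 0.05, the 2 most abundant of each list and the 3 genes closest in pattern to the member of lowest adjusted p. *Fam122a* and *Slc34a1* were not matched, some marker genes are not reported here, *Cip2a* was matched by an older symbol, and *Ppp6r1*, *Pdpk1* and *Cd68* are merged loci. Alternatives changed the pseudocount, the filter, scaling, the libraries fitted, the empirical Bayes step, a replicate block and the 2-fold limit, and left out each library in turn. Plots were drawn with matplotlib 3.10.9 in Python 3.11.15.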

Additional observations from a re-analysis of the deposited data

How the results depend on the processing

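The count of 2 members called against HG became 1 with rFGF1WT and 1 with rFGF1ΔHBS in the fit restricted to the 4 libraries compared, 0 and 0 with the 2-fold limit, and 0 to 1 with each when 1 library was left out, and stayed at 2 under the other alternatives without a block. *Ppp2r5a* was called in 10 of 14 such fits with each protein and *Ppp2r5b* in 7 of 14. Fits with fewer libraries have fewer residual degrees of freedom, and calls over all loci fell from 654 and 661 to 170 and 189 with 4 libraries, to between 118 and 198 without 1 library, and to 407 and 386 without the filter. Between the FGF1 groups 58 loci were called, against 43 to 107 without 1 library and 31 and 19 with a filter at 5 FPKM and with loci above 0 in all libraries.

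With a replicate block the count was 0 with rFGF1WT, 0 with rFGF1ΔHBS and 0 between them (limma, adjusted p of 0.0643 and 0.0661 for *Ppp2r5a*, 0.0698 and 0.0737 for *Ppp2r5b*), with 41, 39 and 6 loci called in all. The block also ended the calls of *Ppp2r2b* and *Mastl*, and that of *Cd68* with both proteins (adjusted p of 0.107 and 0.0855). Deviations of same-numbered libraries from their group means correlated at -0.02, 0.10 and -0.05 over the tested loci. Whether same-numbered libraries shared a culture or a batch is not stated in the sources and was not tested.

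Signs reversed in 14 cases, none of them a called value. Against HG with rFGF1WT, *Ppp2r1a* was 0.0048 with median-ratio scaling, and leaving out a library gave *Ppp2r1b* -0.61 to 0.0088, *Ppp2r2a* -0.12 to 0.026 and *Ppp2r5d* -0.099 to 0.34. With rFGF1ΔHBS it gave *Ppp2r1b* -0.053 to 0.099 and *Ppp2r2a* -0.49 to 0.19. Between the FGF1 groups *Ppp2cb* was 0.0078 with quantile normalization, and leaving out a library gave *Ppp2ca* -0.068 to 0.029, *Ppp2cb* -0.065 to 0.049, *Ppp2r2a* -0.44 to 0.24, *Ppp2r5b* -0.029 to 0.010 and *Ppp2r5e* -0.020 to 0.11. The alternatives for *Ppp2r2b*, *Mastl* and *Cd68* were added after seeing the data. Summing loci of a symbol changed nothing, as each member had 1 locus.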
